A study of Mus musculus with 24 samples.

Results

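The 36 genes described here encode receptors for glutamate and gamma-aminobutyric acid (GABA), the main excitatory and inhibitory transmitters of the cerebellum, and 2 cornichon proteins that accompany AMPA receptors. They were chosen by name: probes whose transcript accession mapped to a listed receptor or cornichon gene were taken, and each gene was read by its brightest probe. All 36 passed the filter on dim probes and belong to the 16935 genes tested. Of the 36, 35 were well above background on all 24 arrays, and Gabrg3 was on 17. The set holds 4 AMPA, 5 kainate, 6 NMDA, 1 delta and 6 metabotropic glutamate receptor genes, 10 GABA-A and 2 GABA-B receptor genes, and Cnih2 and Cnih3.

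Total RNA of mouse cerebellum was measured on 24 single-colour arrays in 12 groups of 2. Controls of the Derlin-1 line carried floxed Derlin-1 alleles (Derlin-1flox/flox) and controls of the Derlin-2 line floxed Derlin-2 alleles (Derlin-2flox/flox), both on C57BL/6. Knockout (KO) mice came from crossing these alleles with a Cre recombinase under the nestin promoter, which is active in progenitors of neurons and of most glia, so that the deletion is not limited to 1 cerebellar cell type. Derlin-1 and Derlin-2 sit in the membrane of the endoplasmic reticulum (ER) and help to remove misfolded proteins from it. No Cre-carrying mice without floxed alleles are among the groups, so Cre itself and the deletion cannot be told apart. Both genotypes of each line were injected daily into the abdomen from postnatal day 14 to 28, either with water as vehicle or with 4-phenylbutyrate (4PBA), which helps proteins to fold, at 200 mg/kg. The Derlin-1 line was measured in a series with numbered replicates and again in a series with lettered replicates, whose arrays without 4PBA name no vehicle and are called untreated. All cerebella were collected on postnatal day 28, per the series' design text. Whether replicates were separate animals is not given in the sources used here, so the p-values measure only the spread between these samples.

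Ionotropic glutamate receptors are tetrameric channels: AMPA receptors carry fast excitation, NMDA receptors add a slower, calcium-permeable current that needs depolarisation, and kainate receptors modulate release and excitability. GABA-A receptors are pentameric chloride channels, whereas metabotropic glutamate receptors and GABA-B receptors act through G proteins. Cerebellar granule neurons are known for GABA-A receptors with the alpha-6 and delta subunits and, once mature, for NMDA receptors with the subunit encoded by Grin2c. Molecular layer and Golgi interneurons release GABA onto Purkinje cells and granule neurons.

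A level is the log2 intensity of a gene's probe minus the log2 of the 75th percentile of that array, and levels are compared between arrays, never between genes. A gene is called where limma's p, adjusted over all genes by the Benjamini-Hochberg method, is under 0.05. The targeted genes were examined first. Derl1 levels of Derlin-1 KO arrays overlapped those of controls (log2 fold change -0.33, SE 0.15, adjusted p 0.178). Derl2 lay between 0.18 and 0.48 on 3 of the 4 arrays labelled Derlin-2 KO and between 1.40 and 1.58 on the controls of that line, but at 1.72 on the remaining one, labelled Derlin-2 KO vehicle 1. Derl3, a stress-induced relative, lay between -0.63 and 0.37 on 7 of the 8 arrays labelled Derlin-1 KO. On the remaining one, labelled Derlin-1 KO 4PBA b, it was -2.27, within the range of the Derlin-1 controls (-3.14 to -1.69). On Derlin-2 KO vehicle 1 Derl3 read -1.85, above the controls of that line (-3.03 to -2.75). That is within the range of the other Derlin-2 KO arrays (-1.96 to -0.61), so only Derl2 went against that label here. These 2 arrays are named by their labels, and main results that rest on them are also given with them left out. The doubt about Derlin-1 KO 4PBA b rests on Derl3, a stress-induced gene, since Derl1 did not separate the genotypes. Whether it is mislabelled or a KO array with a lower stress response was not tested. Fits without it therefore leave out an array chosen by an outcome. Across arrays the mean level of granule neuron markers ranged from 2.28 to 2.83 and that of Purkinje cell markers from 4.62 to 5.06. That of forebrain neuron markers ranged from -3.14 to -2.07. These are ranges between arrays, and the lists are not compared with each other. Each series lay on a slide of its own, with controls in the first columns and KO arrays in the last, and 4PBA arrays filled row 2 while all others filled row 1, so that slide position cannot be told apart from genotype or from 4PBA within a slide.

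Without 4PBA, 10 of the 36 genes were called in Derlin-1 KO cerebellum: Cnih3, Grm8, Gabra6, Gria4, Grm3, Grik3, Grin2c, Gabrb2 and Cnih2 fell, and Gabrb1 rose. That is 27.8% of the members, against 10.6% of all genes. The 9 that fell make 25% of the members, against 5.37% of all genes called lower, and the 1 that rose makes 2.78%, against 5.26% called higher. Called or not, 27 of the 36 lay lower in KO and 9 higher, with a median log2 fold change of -0.14, against 51.2% lower and a median of -0.01 over all genes. When arrays were scaled to their median, which moved the median of all genes to -0.13, the calls over all genes split into 364 higher and 915 lower in place of 890 and 910; relative to that shift 27 members were lower as before, the 9 genes that fell were all called and Gabrb1 was not. On bulk tissue, fewer cells of a type and less RNA per cell cannot be told apart. The count fell to 6 without array 1 or array 2 of the numbered KO, without array a of the lettered control or without array a of the lettered KO, with 960, 782, 983 and 654 of all genes called in these fits in place of 1800, and Cnih3, Grm8, Gabra6 and Grik3 were among the calls each time. The same 4 were the calls when only the 8 arrays compared entered the fit, which called 726 of all genes. Without array b of the lettered control the count was 10 with Grin2d in place of Grin2c, and without both arrays that went against their labels it was 11, with Gabrd added (11.9% of all genes).

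**Figure D1:**
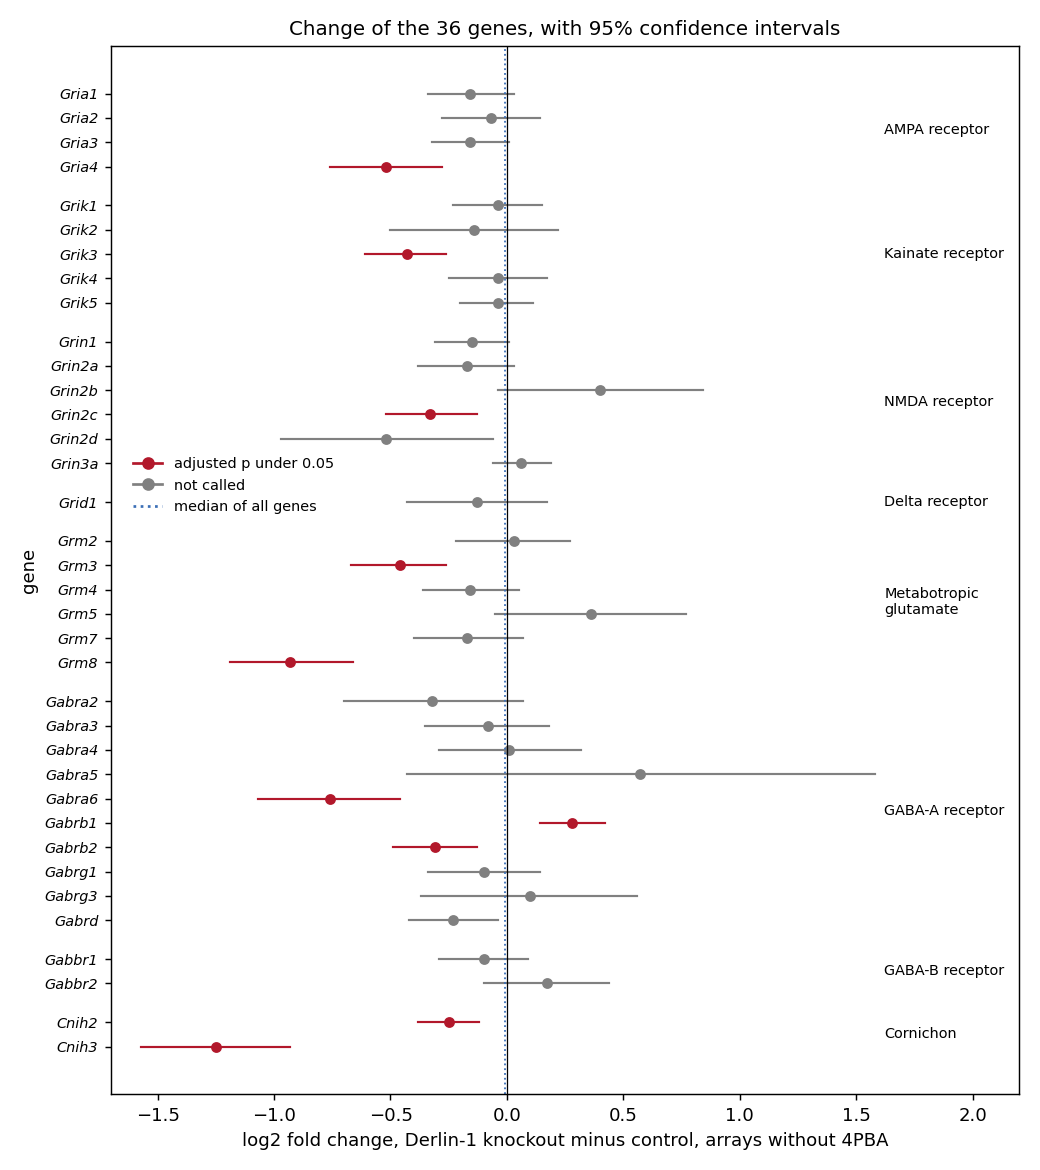
Log2 fold change of each of the 36 genes in Derlin-1 KO against control cerebellum without 4PBA (horizontal axis, with 95% confidence intervals), ordered by receptor family. The 10 called genes are red; Cnih3 lies farthest to the left at -1.25 and Gabrb1 is the only called gene to the right, at 0.28 (not called under median scaling).

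The 3 members with the smallest p-values in this comparison were Cnih3, Grm8 and Gabra6. The 250 bases before their annotated starts are shown because these genes fell together, with letters that match a searched motif in capitals (RefSeq, GRCm38.p6, 5′ to 3′ on the strand of the gene). Cnih3 lies on chromosome 1, plus strand, and its window is chr1:181352378-181352627. The window of Grm8 is chr6:28135147-28135396 on the minus strand, the most upstream of its 3 annotated starts, and that of Gabra6 is chr11:42321073-42321322, also on the minus strand.
Cnih3: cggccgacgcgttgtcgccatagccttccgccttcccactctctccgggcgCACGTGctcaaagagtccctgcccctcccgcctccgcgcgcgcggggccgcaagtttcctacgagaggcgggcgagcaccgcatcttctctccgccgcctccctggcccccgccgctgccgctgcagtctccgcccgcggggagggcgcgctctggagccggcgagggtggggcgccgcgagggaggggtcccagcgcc
Grm8: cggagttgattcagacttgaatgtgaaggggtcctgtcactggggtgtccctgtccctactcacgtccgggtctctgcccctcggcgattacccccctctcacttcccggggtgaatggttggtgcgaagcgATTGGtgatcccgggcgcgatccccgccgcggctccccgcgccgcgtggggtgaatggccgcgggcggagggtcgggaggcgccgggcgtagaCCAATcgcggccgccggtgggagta
Gabra6: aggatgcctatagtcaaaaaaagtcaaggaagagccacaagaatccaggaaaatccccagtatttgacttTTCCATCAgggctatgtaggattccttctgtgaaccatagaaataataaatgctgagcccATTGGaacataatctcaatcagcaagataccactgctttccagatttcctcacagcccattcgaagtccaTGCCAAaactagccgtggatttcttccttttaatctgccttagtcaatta
The following sets of letters were searched on both strands. TATAAA is the letters of a TATA box, and CCAAT is bound by NF-Y. TGACGTCA is the cAMP response element, CACGTG is an E-box, TGATGNAA is the core of composite sites for CHOP and ATF4, and TTGGCA is bound by nuclear factor I. The Cnih3 window held only CACGTG, 199 bases before the start, letters found in 6.02% of the 32851 windows counted. In the Grm8 window CCAAT occurred 2 times, and 33.8% of all windows hold it. The Gabra6 window held CCAAT, TGATGNAA (3.45% of all windows) and TTGGCA (12.3%). Its GC content was 40.8%, against 68.4% for Grm8, 76.0% for Cnih3 and a median of 52.4% over all windows. The 10 called genes had 15 windows, up to 3 a gene. CCAAT was found in at least 1 window of 5 genes, TATAAA in a window of 1 gene and TGACGTCA in 0. These count genes and are not set against shares of windows, which were 12.4% for TATAAA and 1.55% for TGACGTCA. No set of letters was common to the 3 windows shown. A match is a string of letters and says nothing of binding.

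**Figure D2:**
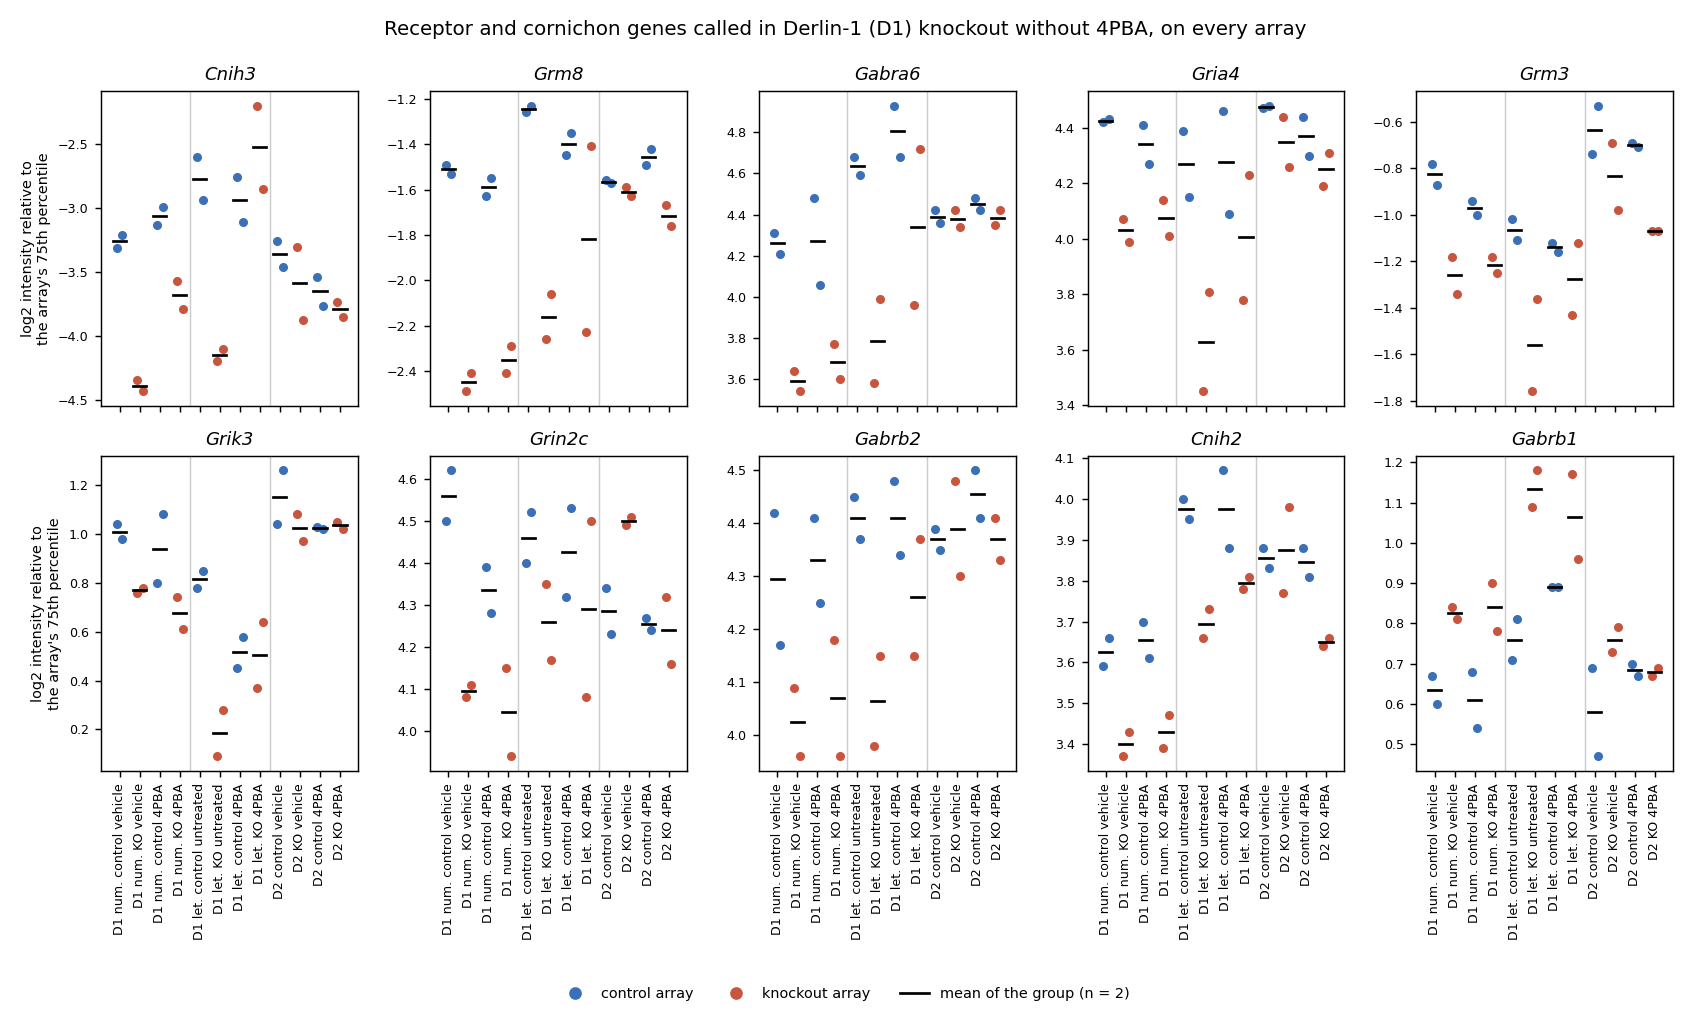
Level of the 10 called genes on each of the 24 arrays (vertical axis, log2 intensity relative to the 75th percentile of the array; each panel has its own range), by group, with the group mean as a bar. D1 and D2 are the Derlin-1 and Derlin-2 lines, num. and let. the numbered and lettered series. In the panels of Cnih3, Grm8 and Gabra6 all 4 Derlin-1 KO arrays without 4PBA lie below the controls of their series.

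AMPA receptor genes and their cornichon partners come first. Cornichons bind AMPA receptors during their export from the ER and slow the closing of the channel. Cnih3 read -3.31 and -3.21 on the numbered vehicle controls and -4.34 and -4.43 on the KO arrays, and in the lettered series -2.60 and -2.94 on untreated controls and -4.19 and -4.10 on KO arrays. The 4 KO arrays were the lowest of all 24, and the groups did not overlap in either series. KO minus control was -1.25 on the log2 scale (SE 0.15, adjusted p 0.00203), and -0.76, still called, with normexp background correction. Cnih2 read 3.59 and 3.66 on numbered controls, 3.37 and 3.43 on KO arrays, 4.00 and 3.95 on lettered controls and 3.66 and 3.73 on KO arrays. The KO arrays were again below the controls of their series, by a smaller margin (-0.25, SE 0.06, adjusted p 0.0204). That call was lost without any of 5 single arrays (array 2 of the numbered control, either numbered KO array, array a of the lettered control or array a of the lettered KO), with adjusted p from 0.0519 to 0.0803.

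Gria4 encodes the AMPA receptor subunit with fast kinetics found in granule neurons and Bergmann glia. Its levels were 4.42 and 4.43 on numbered controls, 4.07 and 3.99 on KO arrays, 4.39 and 4.15 on lettered controls and 3.45 and 3.81 on KO arrays. No KO array reached a control of its series, and KO minus control was -0.52 (SE 0.11, adjusted p 0.0117). Its other 2 kept probes gave -0.45 and -0.39, with adjusted p of 0.063 and 0.075 in a fit of every probe, and without array a of the lettered KO the change was -0.43 (adjusted p 0.0625). The other AMPA subunits, Gria1, Gria2, whose edited form limits calcium entry, and Gria3, had fold changes of -0.16, -0.07 and -0.16 and were not called. Their 95% confidence intervals reached -0.34, -0.28 and -0.32 at the lower end. The second probe of Gria3 gave 0.11, of opposite sign.

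Among the 5 kainate receptor genes Grik3 alone was called. Grik3 encodes a low-affinity subunit, and it read 1.04 and 0.98 on numbered controls, 0.76 and 0.78 on KO arrays, 0.78 and 0.85 on lettered controls and 0.09 and 0.28 on KO arrays. KO arrays lay below the controls of their series in both, with the larger step in the lettered series (-0.63, SE 0.12) than in the numbered series (-0.24, SE 0.12). Over both series the change was -0.43 (SE 0.08, adjusted p 0.00598). The difference between the series was -0.39 (SE 0.16, adjusted p 0.978). Grik1, Grik2, Grik4 and Grik5 changed by -0.04, -0.14, -0.04 and -0.04, none of them called; the kept probes of Grik1 and of Grik2 disagreed in sign.

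Of the 6 NMDA receptor genes 1 was called, Grin2c, which fell. Grin2c, the mature granule neuron subunit, read 4.50 and 4.62 on numbered controls and 4.08 and 4.11 on KO arrays, and 4.40 and 4.52 on lettered controls against 4.35 and 4.17 on KO arrays. The KO arrays were lower in both series, by a wide margin only in the numbered one. The change was -0.33 (SE 0.09, adjusted p 0.034), a call lost without any single one of the 8 arrays (adjusted p 0.0551 to 0.105) and under quantile normalization (-0.24, adjusted p 0.182). Grin2d, a subunit of interneurons, had a fold change as large as that of Gria4, -0.52, but an SE of 0.21 and an adjusted p of 0.137; its controls ranged from 1.46 to 2.93 and its KO arrays from 1.25 to 2.31. Grin2b, the subunit that Grin2c replaces as granule neurons mature, lay 0.40 higher (SE 0.21, adjusted p 0.229), and all 4 KO arrays were above the controls of their series. The obligatory subunit gene Grin1 changed by -0.15, Grin2a by -0.17 and Grin3a by 0.06, none called. Grid1, of the delta family that binds synaptic organisers, changed by -0.13 (SE 0.14).

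Of the 6 metabotropic glutamate receptor genes 2 fell. Grm8 encodes a presynaptic receptor that inhibits release. It read -1.49 and -1.53 on numbered controls and -2.49 and -2.41 on KO arrays, and -1.26 and -1.23 on lettered controls against -2.26 and -2.06 on KO arrays. In each series the step between the groups exceeded the gap between replicates (log2 fold change -0.93, SE 0.12, adjusted p 0.00203). Grm3, whose receptor lowers cyclic AMP and is found on glia and some neurons, read -0.78 and -0.87 on numbered controls, -1.18 and -1.34 on KO arrays, -1.02 and -1.11 on lettered controls and -1.76 and -1.36 on KO arrays. Groups did not overlap, and the change was -0.46 (SE 0.10, adjusted p 0.00946). Grm4, the presynaptic receptor of parallel fibres, changed by -0.16, Grm7 by -0.17, and Grm2, a marker of Golgi cells, by 0.03. Grm5, which couples to calcium release, lay 0.36 higher (SE 0.19, adjusted p 0.253).

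GABA-A receptor genes gave 2 calls lower and 1 higher. Gabra6, whose subunit in the cerebellum is confined to granule neurons, read 4.31 and 4.21 on numbered controls, 3.64 and 3.54 on KO arrays, 4.68 and 4.59 on lettered controls and 3.58 and 3.99 on KO arrays. All KO arrays were at least as far below the controls as the widest gap between replicates, and the change was -0.76 (SE 0.14, adjusted p 0.00589). Gabrb2, the most common beta subunit of granule neurons, read 4.42 and 4.17 on numbered controls, 4.09 and 3.96 on KO arrays, 4.45 and 4.37 on lettered controls and 3.98 and 4.15 on KO arrays. Groups were close in the numbered series (-0.31 over both, SE 0.08, adjusted p 0.03). Its other 2 probes gave -0.12 and 0.03, neither called, and the call was lost without any of 5 arrays (array 1 of the numbered control, either numbered KO array, array a of the lettered control or array a of the lettered KO; adjusted p 0.0516 to 0.124).

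Gabrb1, the subunit gene that rose, read 0.67 and 0.60 on numbered controls and 0.84 and 0.81 on KO arrays, and 0.71 and 0.81 on lettered controls against 1.09 and 1.18 on KO arrays. KO arrays were above the controls in both series (0.28, SE 0.07, adjusted p 0.0164). Without array 2 of the numbered control, either numbered KO array or array a of the lettered control the adjusted p lay between 0.0505 and 0.0595. Gabrd, the delta subunit that pairs with the alpha-6 subunit outside synapses, had a change of -0.23 (SE 0.09, adjusted p 0.104), with all 4 KO arrays below the controls of their series. Gabra2 changed by -0.32 (SE 0.18), Gabra3 by -0.08, Gabra4 by 0.01 and Gabrg1 by -0.10. Gabra5 had the widest interval of the set, 0.57 with a 95% confidence interval of -0.43 to 1.58; its arrays without 4PBA ranged from -3.83 to -1.69. Gabrg3, dim on 7 arrays, changed by 0.10. The GABA-B receptor subunits, which work as a pair, were not called: Gabbr1 changed by -0.10 (adjusted p 0.516) and Gabbr2 by 0.17 (adjusted p 0.417).

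GABA-A subunit genes lie in clusters, so members that neighbour each other in the reference gene order were compared. On chromosome 11 Gabra6 and Gabrb2 follow each other with 0 protein-coding genes between them, and their changes were -0.76 and -0.31. On chromosome 5 Gabrg1, Gabra2, Gabra4 and Gabrb1 lie in that order, with 1 gene between Gabra2 and Gabra4, and changed by -0.10, -0.32, 0.01 and 0.28. The chromosome 7 neighbours Gabrg3 and Gabra5 changed by 0.10 and 0.57. On chromosome 5 Gabrb1 was the only called member of its cluster. Differences between neighbours were not tested.

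Across members, 12 had all 4 KO arrays below the controls of their series, 33.3% against 12.4% of all genes, and 2 had them all above, 5.56% against 11.5%. Besides the 9 called lower these were Grin2d, Gabra2 and Gabrd; besides Gabrb1 it was Grin2b. The mean deviation of the 9 genes called lower from the controls without 4PBA of their slide was -0.51 and -0.55 on the numbered and -0.73 and -0.54 on the lettered KO arrays. On every control array of the 3 slides it stayed between -0.11 and 0.04. These 9 were chosen from the same arrays, so the 4 KO values describe them and test nothing.

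**Figure D3:**
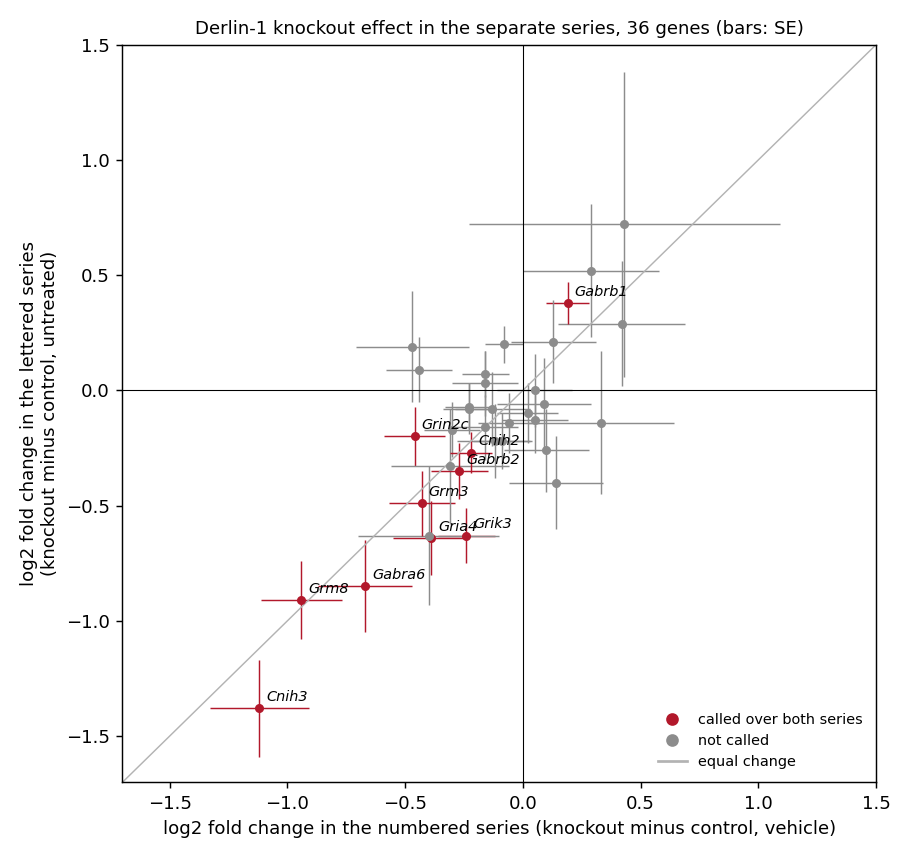
Log2 fold change of the 36 genes in the numbered series (horizontal axis) against the lettered series (vertical axis), each KO minus control without 4PBA, with SE bars; the grey diagonal marks equal change. The 10 genes called over both series are red and have the same sign in both.

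The separate series were compared directly. All 10 called genes had the same sign in both series. In the numbered series alone 0 members passed, as did only 2 of all genes; Grm8 (-0.94) and Cnih3 (-1.12) had the smallest adjusted p of the members there, 0.079. In the lettered series alone 6 members passed, as did 599 of all genes: Cnih3 (-1.38), Grm8 (-0.91), Gabra6 (-0.85), Gria4 (-0.64), Grik3 (-0.63) and Gabrb1 (0.38). The test of lettered minus numbered effects called 0 members and 0.0059% of all genes; 3 members had an unadjusted p under 0.05 in limma (3.71% of all genes had), and these had the smallest p-values. Besides Grik3 these were Grin2a, which read -0.62 and -0.83 on numbered controls, -1.07 and -1.27 on KO arrays, -1.15 and -0.96 on lettered controls and -0.86 and -1.06 on KO arrays, and Grin3a. For the NMDA subunit gene Grin2a, KO minus control was -0.44 (adjusted p 0.179) in the numbered and 0.09 (adjusted p 0.742) in the lettered series (difference 0.53, SE 0.19, adjusted p 0.978), and its second probe gave 0.00 over both series. Grin3a, which lowers calcium entry through NMDA receptors, read 1.39 and 1.32, then 1.32 and 1.23, in numbered controls and KO arrays, and 0.68 and 0.56, then 0.86 and 0.78, in lettered ones. Its KO arrays lay above the controls in the lettered series and not in the numbered one (difference 0.28, SE 0.12, adjusted p 0.978).

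Other genes of glutamate and GABA signalling were examined by role in the same comparison, in which 10.6% of all genes were called, so counts per role near that share are no result about the role. Of 11 further receptor genes measured, 2 were called lower, among them Grin3b (-0.50, SE 0.10, adjusted p 0.00891), which encodes an NMDA receptor subunit. Of 40 auxiliary and scaffold genes 2 were called higher and 4 lower. The TARP genes, whose proteins carry AMPA receptors to the synapse, went both ways: Cacng3 rose by 1.09 (SE 0.15, adjusted p 0.00228), Cacng7 fell by 0.55 (SE 0.11, adjusted p 0.00886) and Cacng2 was called lower as well. Nsf, which recycles vesicle fusion proteins, fell by 0.28 (adjusted p 0.0156), the scaffold gene Shank3 fell by 0.50 (adjusted p 0.0264), and Kctd16, an auxiliary subunit of GABA-B receptors, rose by 1.26 (adjusted p 0.04). Of 18 genes of transmitter synthesis and transport 3 fell, among them Gad1, which encodes a GABA synthesis enzyme (-0.22, adjusted p 0.0159), and Slc32a1, which encodes the vesicular GABA transporter (-0.34, adjusted p 0.0401). Of 10 synaptic organiser genes Nrxn2 fell (-0.27, adjusted p 0.0158).

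Markers of some cell types changed in the same comparison, in both directions, and their part in the result was not tested. Of 12 measured markers of molecular layer and Golgi interneurons 8 fell and 1 rose, with a median of -0.33, and their mean level was 1.06 to 1.22 on KO arrays against 1.31 to 1.42 on controls. Kit (-0.54, adjusted p 0.00341), Prkcd (-0.45, adjusted p 0.0039), Sorcs3 (-0.72, adjusted p 0.0058) and Tfap2b (-0.55, adjusted p 0.00774) led by p, Gad1, Nos1 and Slc32a1 were among the others that fell, and Lgi2 rose; Gad1 and Slc32a1 also stand in the transmitter list. Of 12 granule neuron markers Neurod1 (-0.68, SE 0.11, adjusted p 0.00378) and Zic1 (-0.28, adjusted p 0.0324) fell, the median was -0.16, and the mean level was 2.37 to 2.60 on KO arrays against 2.47 to 2.69 on controls, ranges that overlap between the series but not within either. Of 12 Purkinje cell markers limma called 0 (3 at an unadjusted p under 0.05, median -0.06). Microglia markers rose in 7 of 10 cases, led by C1qb (1.44), Aif1 (1.49), Trem2 (1.77), C1qa (1.43) and Cx3cr1 (1.04), adjusted p 0.00245 to 0.00363, followed by C1qc and Csf1r; their mean level was 1.28 to 1.56 on KO arrays and 0.32 to 0.59 on controls. Gfap of astrocytes (1.25), Olig2 of oligodendrocyte precursors (0.41) and Spp1 (1.04), listed for unipolar brush cells and nuclei, were the other marker genes called, and all 3 rose. All 10 ER stress genes rose, with a median of 1.68, led by Ddit3 (1.55), Herpud1 (1.33), Trib3 (3.32), Creld2 (1.45) and Hspa5 (1.23), and further Chac1, Sdf2l1, Derl3, Dnajb9 and Atf3. None of 10 oligodendrocyte, 7 choroid plexus, 10 forebrain and 9 brainstem markers was called by limma, with 2, 0, 1 and 2 at an unadjusted p under 0.05. The mean level of the choroid plexus markers ranged from -1.39 to 3.34 on the KO arrays and from -0.62 to 2.75 on the controls, ranges that overlap.

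**Figure D4:**
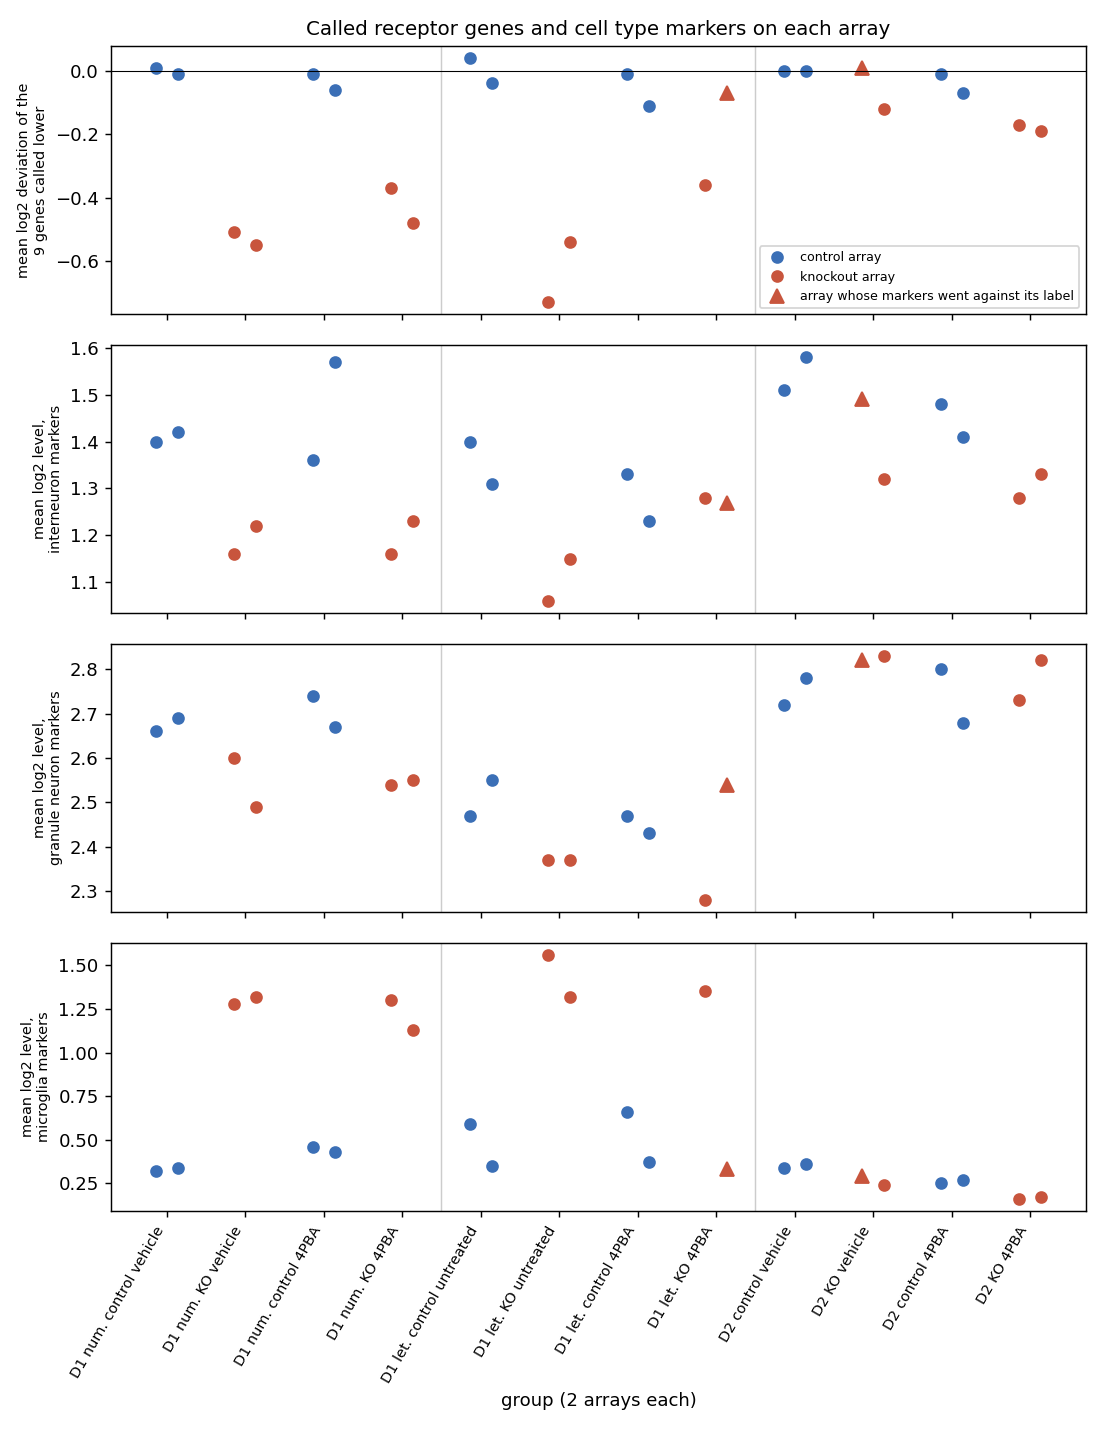
For each array, from top to bottom: the mean log2 deviation of the 9 genes called lower from the controls without 4PBA on the same slide, and the mean log2 level of markers of molecular layer and Golgi interneurons, of granule neurons and of microglia. Triangles are the arrays labelled Derlin-1 KO 4PBA b and Derlin-2 KO vehicle 1, which lie near controls in the top panel, at -0.07 and 0.01.

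Under 4PBA the question was whether the KO still differed from its control. Of the 36 members limma called 0 in Derlin-1 KO against control with 4PBA, where 0.0472% of all genes were called; 8 members had an unadjusted p under 0.05, as had 12.8% of all genes. The median change of the members was -0.06, against -0.02 over all genes. When the lettered array labelled KO 4PBA b was left out, which leaves 1 array in that group, assumed to vary like the others, 6.18% of all genes and 6 members were called: Grm8 (-0.79, adjusted p 1.97e-05), Gabra6 (-0.72, adjusted p 0.00258), Gabrd (-0.34, adjusted p 0.0131) and Grin2c (-0.32, adjusted p 0.0351) lower, and Grm5 (0.63, adjusted p 0.0166) and Gabrb1 (0.25, adjusted p 0.0446) higher. On that array alone among the Derlin-1 KO arrays the mean deviation of the 9 genes called lower without 4PBA was -0.07; it was -0.37, -0.48 and -0.36 on the other KO arrays with 4PBA. Microglia markers averaged 0.33 and ER stress genes 0.33 on it, against 1.13 to 1.35 and 1.91 to 2.11 on the other 3. Low Derl3 was the reason to leave this array out, so the fit without it cannot test whether 4PBA lessened the KO effect.

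Grm8, Gabra6 and Cnih2 had the smallest p-values among members here. Grm8 read -1.63 and -1.55 on numbered 4PBA controls and -2.41 and -2.29 on KO arrays, -1.45 and -1.35 on lettered controls and -2.23 on KO array a, but -1.41 on the array labelled KO b, in the range of the controls (-0.59 with all arrays, SE 0.12, adjusted p 0.099). Gabra6 read 4.48 and 4.06 on numbered controls and 3.77 and 3.60 on KO arrays, and 4.93 and 4.68 on lettered controls against 3.96 and 4.72 on KO arrays a and b. Only the array labelled KO b overlapped the controls (-0.53, SE 0.14, adjusted p 0.163). Cnih2 read 3.70 and 3.61 against 3.39 and 3.47, and 4.07 and 3.88 against 3.78 and 3.81, and here all 4 KO arrays lay below the controls (-0.20, SE 0.06, adjusted p 0.202). It was the 1 member to do so under 4PBA, 2.78% of members against 3.98% of all genes; Gabrb1 was the 1 with all 4 KO arrays above, where 2.55% of all genes were. Gabrb1 read 0.68 and 0.54 against 0.90 and 0.78, and 0.89 and 0.89 against 1.17 and 0.96. Both shares are close to or below the share of all genes.

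With 4PBA the other genes called without it read as follows. Gria4 had 4.41 and 4.27 on numbered controls, 4.14 and 4.01 on KO arrays, 4.46 and 4.09 on lettered controls and 3.78 and 4.23 on KO arrays a and b. The KO values were lower in the numbered series and overlapped in the lettered one. Grik3 read 0.80 and 1.08, then 0.74 and 0.61, in the numbered series and 0.45 and 0.58, then 0.37 and 0.64, in the lettered series, in the order controls then KO. Grm3 read -0.94 and -1.0, then -1.18 and -1.25, and -1.12 and -1.16, then -1.43 and -1.12. In both genes only the array labelled KO b rose to or above a lettered control. Grin2c read 4.39 and 4.28, then 4.15 and 3.94, and 4.32 and 4.53, then 4.08 and 4.50. Gabrb2 read 4.41 and 4.25, then 4.18 and 3.96, and 4.48 and 4.34, then 4.15 and 4.37. For these 2 granule neuron subunits as well, array a of the lettered KO lay below its controls and the array labelled KO b among them.

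4PBA was next compared with vehicle or, in the lettered series, with untreated arrays within each genotype; whether the untreated mice were injected is not given in the sources used here, so in that series the drug and the injection cannot be told apart. In Derlin-1 KO 26 of the 36 members lay higher with 4PBA (median 0.05, against -0.01 over all genes; 23 and 0.02 without the one labelled KO 4PBA b), and the 1 that was called was Cnih3, which rose, 2.78% of members against 0.0354% of all genes. With 4PBA Cnih3 read -3.57 and -3.79 on the numbered KO arrays, against -4.34 and -4.43 with vehicle, and -2.20 and -2.85 on the lettered KO arrays a and b, against -4.19 and -4.10 untreated. Every KO array with 4PBA lay above every KO array without it, by 1.16 on average on the log2 scale (SE 0.15, adjusted p 0.00737). Leaving out KO 4PBA b gave 1.32 (adjusted p 0.0015), leaving out array a of the untreated lettered KO gave 1.14 (adjusted p 0.0694), and the numbered series alone gave 0.71, which was not called (adjusted p 1.0). With only the 8 arrays compared in the fit its adjusted p was 0.249. With normexp background correction in place of the scanner's, which adds an offset to every spot, the change with 4PBA was 0.75 (adjusted p 0.0624). Under 4PBA Cnih3 read -3.13 and -2.99 on numbered and -2.76 and -3.11 on lettered controls, so that KO minus control was -0.10 (SE 0.15, 95% confidence interval -0.42 to 0.22). Without KO 4PBA b the sign turned, to 0.06 (adjusted p 0.888). On the numbered slide both KO arrays were still below both controls, and on the lettered slide array a lay above both and array b between them.

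The limma test that 4PBA acts differently on Cnih3 in KO than in controls gave a difference of 1.15 (SE 0.21, unadjusted p 8.56e-05, adjusted p 0.215). The difference was 1.31 without the array labelled KO 4PBA b, which leaves array a alone in its group, and 0.98 without array a. Array a had the highest Cnih3 level of all 24 arrays, -2.20. Over all arrays limma called 0 members for the difference of 4PBA effects and 0.0118% of all genes, with 2 members at an unadjusted p under 0.05. The members with the next smallest p-values were Grik3 (0.30, SE 0.12, adjusted p 0.999) and Grm3 (0.27, SE 0.14, adjusted p 0.999), at 0.23 and 0.19 without b. For Grm8 the change with 4PBA in KO was 0.22 (SE 0.12, adjusted p 0.787) with all arrays and 0.02 (adjusted p 1.0) without the array labelled b. Without array a, which leaves b, the array whose Derl3 went against its label, alone in the lettered group, the Grm8 change was 0.43. The difference of the 4PBA effects on Grm8 was then 0.54.

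In Derlin-1 controls 4PBA changed 0 members by limma and 0.0295% of all genes, with 1 member at an unadjusted p under 0.05. The 3 smallest p-values belonged to Grik3, Grm4 and Grin2c. Grik3 read 1.04, 0.98, 0.78 and 0.85 without 4PBA and 0.80, 1.08, 0.45 and 0.58 with it (-0.18, SE 0.08, adjusted p 1.0). Both lettered arrays with 4PBA lay below both without it, and the numbered arrays overlapped. A difference between the series was not tested here. Grin2c changed by -0.13 (SE 0.09, adjusted p 1.0) between the control values given above, and Grm4, which read 0.14 and 0.45 on numbered and 1.0 and 0.98 on lettered controls without 4PBA, had 0.30 and 0.10, and 0.70 and 0.86, with it (-0.15, SE 0.10, adjusted p 1.0). Only the lettered Grm4 arrays with 4PBA all lay below those without.

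**Figure D5:**
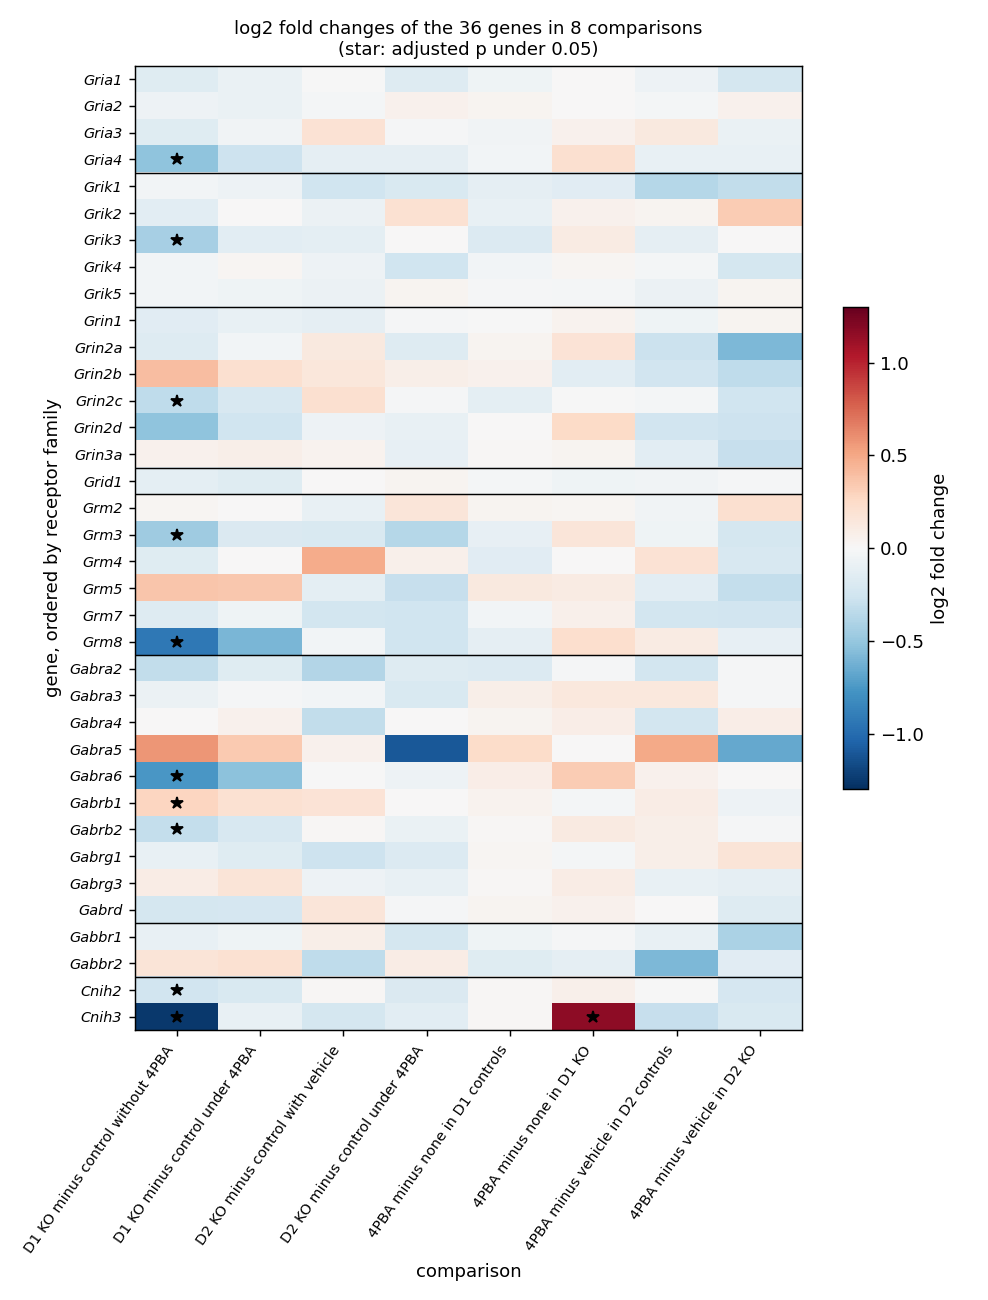
Log2 fold changes of the 36 genes (rows, by receptor family) in the 8 comparisons (columns), from blue for lower to red for higher; stars mark an adjusted p under 0.05. The stars stand in Derlin-1 KO without 4PBA (10 genes) and for Cnih3 with 4PBA in Derlin-1 KO.

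In the Derlin-2 line limma called 0 members in KO against control with vehicle (0.118% of all genes; 1 member at an unadjusted p under 0.05) and 0 under 4PBA (0.136% of all genes; 2 members). With vehicle the smallest p-values belonged to Grm4, Grik1 and Gabbr2. Grm4 read 0.20 and 0.19 on controls and 0.64 and 0.71 on KO arrays, higher on both (0.48, SE 0.14, adjusted p 0.333). Grik1, a subunit of kainate receptors on interneurons, read 0.21 and 0.31 on controls and 0.13 and -0.12 on KO arrays (-0.26, SE 0.13, adjusted p 0.654). Gabbr2 read 0.78 and 0.51 on controls, 0.49 on the array labelled KO 1 and 0.12 on KO 2 (-0.33, SE 0.18, adjusted p 0.682; -0.52, adjusted p 0.389, without KO 1). The array labelled KO vehicle 1 lay between the controls and KO 2 for Grik1 and Gabbr2, and near KO 2 for Grm4. Without it Grm4 changed by 0.51 (adjusted p 0.264) and Grik1 by -0.38 (adjusted p 0.375), and 0 members and 0.484% of all genes were called; the KO group is then 1 array, assumed to vary like the other groups.

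Under 4PBA Grm3, Cnih2 and Grik4 had the smallest p-values between Derlin-2 KO and control. Grm3 read -0.69 and -0.71 on controls and -1.07 and -1.07 on KO arrays (-0.37, SE 0.14, adjusted p 0.832). Cnih2 had 3.88 and 3.81 on controls and 3.64 and 3.66 on KO arrays (-0.19, SE 0.09, adjusted p 0.996). For Grik4, a high-affinity kainate subunit, the values were 1.28 and 1.38 on controls and 1.12 and 1.01 on KO arrays (-0.26, SE 0.14, adjusted p 1.0). In all 3 genes both KO arrays lay below both controls, yet none passed the adjustment. The 9 genes called lower in Derlin-1 KO deviated by a mean of 0.01 on the one labelled KO vehicle 1, -0.12 on KO vehicle 2 and -0.17 and -0.19 on the KO arrays with 4PBA. Cnih3 read between -3.87 and -3.26, Grm8 between -1.76 and -1.42 and Gabra6 between 4.34 and 4.48 on all 8 arrays of this line.

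4PBA in Derlin-2 controls called 0 members by limma and 0.13% of all genes, with 2 members at an unadjusted p under 0.05. Gabbr2 read 0.78 and 0.51 with vehicle and 0.08 and 0.05 with 4PBA (-0.58, SE 0.18, adjusted p 0.656). Grik1 went from 0.21 and 0.31 to -0.14 and -0.07 (-0.37, SE 0.13, adjusted p 0.787). Grin2a went from -0.61 and -0.93 to -1.0 and -1.10 (-0.28, SE 0.14, adjusted p 0.979). None of these groups overlapped, though with 2 arrays each and all genes adjusted together none passed. In Derlin-2 KO limma again called 0 members and 0.136% of all genes; 5 members had an unadjusted p under 0.05, as had 9.21% of all genes. With KO vehicle 1 left out it called 0 members and 0.484% of all genes. Grin2a read -0.56 and -0.71 with vehicle and -1.27 and -1.17 with 4PBA (-0.58, SE 0.14, adjusted p 0.146). Grin3a had 1.18 and 1.22 against 0.95 and 0.84 (-0.30, SE 0.08, adjusted p 0.268), and Gabbr1 4.52 and 4.81 against 4.21 and 4.30 (-0.41, SE 0.13, adjusted p 0.31). All 3 were lower on both 4PBA arrays. With KO vehicle 1 left out Grin2a changed by -0.51 (adjusted p 0.316), Grin3a by -0.32 (adjusted p 0.301) and Gabbr1 by -0.56 (adjusted p 0.148). Grin2a was called under median scaling (-0.82, adjusted p 0.0323), where the median of all genes shifts by up to 0.29 in a comparison, and both Grin2a and Grin3a without a filter on dim probes (adjusted p 0.0165 and 0.0447), a fit that called 1843 of all genes in place of 23.

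Whether 4PBA acted differently in Derlin-2 KO and controls was tested directly, with 0 members called by limma (0 at an unadjusted p under 0.05) and 0.0768% of all genes. The smallest p-values were those of Grm4 (-0.40, SE 0.19, adjusted p 0.974; -0.44 if KO vehicle 1 is left out), Gabbr1 (-0.32, SE 0.18, adjusted p 1.0; -0.46 likewise) and Cnih2 (-0.21, SE 0.12, adjusted p 1.0; -0.32 likewise). Grm4 read 0.58 and 0.20 on 4PBA controls and 0.40 and 0.52 on 4PBA KO arrays, Gabbr1 4.56 and 4.61 on vehicle controls and 4.58 and 4.40 on 4PBA controls, and Cnih2 3.88 and 3.83 on vehicle controls and 3.77 and 3.98 on vehicle KO arrays. The 4PBA KO arrays were the lowest of the 8 arrays of this line for Gabbr1 and Cnih2, while those of Grm4 lay between its 4PBA controls.

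The KO effects of the Derlin-1 and Derlin-2 lines without 4PBA were compared last, since the lines were called separately. limma called 0 members for this difference and 0.065% of all genes; 11 members had an unadjusted p under 0.05, as had 14.0% of all genes. Grm8 differed by -0.89 (SE 0.21, adjusted p 0.119): Derlin-1 KO lowered it by the values above, while Derlin-2 arrays with vehicle read -1.56 and -1.57 on controls and -1.59 and -1.63 on KO arrays. Cnih3 differed by -1.02 (SE 0.26, adjusted p 0.128), with Derlin-2 arrays at -3.26 and -3.46 on controls and -3.30 and -3.87 on KO arrays. Grm4 differed by -0.63 (SE 0.17, adjusted p 0.137), from opposite signs in the lines, and its Derlin-1 KO arrays read 0.10 and 0.16 in the numbered and 0.77 and 0.89 in the lettered series. With the one labelled KO vehicle 1 left out, still 0 members were called; the Cnih3 difference was then -0.73 (adjusted p 0.249), and Cnih3 in Derlin-2 KO with vehicle went from -0.23 to -0.52 (adjusted p 0.467). With both arrays that went against their labels left out, Grm8 was called (-0.86, adjusted p 0.0056), as were 1.65% of all genes; the Derlin-2 KO vehicle group is then 1 array whose spread is taken from the other groups. Without KO vehicle 1 alone Grm8 had the same difference and an adjusted p of 0.154. Grm8 was also called when only the arrays of this comparison were fitted, none of them left out (-0.89, adjusted p 0.0178; 115 of all genes).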

How the data were processed

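Total RNA of 24 mouse cerebellum samples was labelled with Cy3, and groups came from the sample titles. The authors' deposited scanner files hold a background-corrected linear intensity per spot, read with Agilent Feature Extraction 10.7.1.1 per the submitters' processing notes; the deposited value matrix held the same intensities (largest log2 difference 1.74e-06), and no normalization between arrays is recorded. Of 59305 non-control spots per array, 52 to 637 with outlier flags were left out, and repeated spots were averaged into 56605 probes. The array's 75th percentile (890 to 1169) was subtracted on the log2 scale. Symbols came through probe accessions (32994 probes, 22911 symbols), a probe stayed in (38115 did) if some group had it well above background on each of its arrays, and the brightest probe stood for a gene. Between 57.7% and 68.4% of spots were well above background.

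All 24 arrays entered 1 limma model (limma 3.58.1, in R 4.3.3, with version 1.17.8 of data.table) with a mean per group; the residual degrees of freedom were 12 and the prior ones 2.13. Derlin-1 comparisons averaged both series within slides. Tests were two-sided with Benjamini-Hochberg adjustment over all genes. With 2 arrays per group the number of arrays limits the precision: the median SE was 0.104 for averaged comparisons and 0.147 within the Derlin-2 slide. The files used hold no mean signal, so the normexp alternative (offset 50) used the median signal.

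Members and gene lists were chosen with earlier results of these data known. Values on every array are given for members called in any comparison and, where none was called, for the 3 with the smallest p; for other genes at most 5 called per list have values. Alternatives covered background, scaling, the filter on dim probes, the choice of probe, the arrays in the fit, series, pairing and each array left out. Replicate numbers and letters were checked for pairing in 18 pairs of groups: correlations of deviations ran from -0.15 to 0.40, and 7 were over 0.1. In the lettered series they ran from -0.04 to 0.40, and all but the lowest were over 0.1. The samples were not treated as paired in the main fit, and a fit with a replicate block is given below. Promoter windows come from RefSeq tables of GRCm38.p6, not from the mm9 build in the headers. Some genes of the lists are counted but not reported here by name.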

Additional observations from a re-analysis of the deposited data

How the results depend on the processing

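With 2 arrays per group, counts of members called changed with the arrays, the series and the processing used. In Derlin-1 KO against control without 4PBA (10 members called) the count was 4 when only the arrays compared were fitted (726 of all genes called, in place of 1800), 0 in the numbered series alone (2 of all genes), 6 in the lettered series alone (599), and 6 to 10 with single arrays left out (654 to 2788); normexp gave 10 (1864), quantile 8 (1558), median scaling 9 (1279), no filter on dim probes 8 (1255), the mean of a gene's probes 7 (1543) and every probe fitted 8 (1938 probes). Under 4PBA the count of 0 became 0 to 6 with single arrays left out (8 to 1047 of all genes) and 5 (993) without both arrays that went against their labels, an alternative chosen after seeing the data. For 4PBA in Derlin-1 KO (1 member) it was 0 with normexp (0 of all genes), 0 with only the arrays compared (5), 0 in the numbered series alone (5) and 0 to 2 with single arrays left out (3 to 193). For 4PBA in Derlin-2 KO (0 members) median scaling gave 1 (44 of all genes, in place of 23) and no filter on dim probes 2 (1843). The difference of 4PBA effects in the Derlin-1 line gave 0 to 1 with single arrays left out (2 to 31 of all genes) and 1 without both arrays (5). The difference between the lines gave 1 with only the arrays compared (115 of all genes) and 1 without both arrays (279). Where 1 array is left in a group, it is assumed to vary like the other groups. Where a cause is not given by fewer arrays or genes, the cause was not tested. None of the 41 single-gene results changed direction under the alternatives that applied to it, 14 to 26 each. They were picked because they were called or had the smallest p-values, so a stable sign was partly set by that choice. Other values did turn without the array labelled KO 4PBA b. In Derlin-1 KO under 4PBA, Cnih3 went from -0.10 to 0.06 and Grik2 from 0.01 to -0.02. The fit with a replicate block called the same 10 members in Derlin-1 KO without 4PBA and changed no other call.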
